A study of Mus musculus with 8 samples.

Results

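Type I interferon stimulated genes are the genes that cells switch on after contact with interferon-alpha or interferon-beta. A list of 39 of them was followed in activated mouse CD8 T cells: Isg15, Isg20, members of the Ifit, Mx and Oas families, RNA and DNA sensors, and other induced genes. A member was measured where a probe set of the array was annotated to its symbol alone, and of several the brightest on average was used. Of the 39, 32 had such a probe set, out of 12393 genes in all. A level filter, described below, left 23 of the members for testing, out of 8003 genes.

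The arrays came from cytotoxic CD8 T cells of 4 OT-1 mice, named A to D, which carry a transgenic T cell receptor for an ovalbumin peptide. The cells of each mouse were split between PD-L1-overexpressing ID8 targets (4 arrays) and PD-L1-depleted ID8 targets (4 arrays), where PD-L1 is the protein that engages the inhibitory receptor PD-1 and ID8 is a mouse ovarian cancer cell line. All T cells had been activated beforehand, all targets carried the ovalbumin peptide, and contact lasted 4 h at a ratio of 30 T cells to each target before the T cells were recovered magnetically. How PD-L1 was raised or removed, whether the target lines were single clones, and the age and sex of the mice are not given in the labels. T cells without targets were not analysed here. Each animal gave 1 array per target, so the comparison of targets has n = 4 pairs, and differences between animals are judged against how much 2 co-cultures of an animal differed. In such bulk RNA, fewer cells of a type and less RNA per cell cannot be told apart.

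Type I interferons bind the receptor of Ifnar1 and Ifnar2, and the kinases Jak1 and Tyk2 then phosphorylate Stat2, among others. Stat2 and Irf9 are part of the complex ISGF3, which binds the interferon-stimulated response element in the promoters of induced genes. Many induced proteins recognise or degrade viral RNA, block viral budding, or feed back on the pathway, as Usp18 does. In CD8 T cells, type I interferon is known both to support expansion and to restrain proliferation, depending on when it is met.

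The response element can be read directly in some of the promoters. The motif searched was the core of that element, GAAA followed by any 2 bases and GAAA again, on either strand and allowing overlapping matches, in windows of 300 bases that run from 250 before to 50 after each start site (RefSeq, GRCm38.p6). The table held 27 of the 39 members, and 14 of these 27 (51.9%) had a match, against 3.99% of the 27025 genes in the table. The sequences shown belong to the tested members that hold a match and differed most between mice, in the order of that test, and capitals mark the matches. In Oas1a, 2 overlapping matches started 20 and 14 bases before the start site. Bst2 likewise had an overlapping pair, starting 130 and 124 bases before it. The match of Trim30a started 36 bases before the start site and lay on the opposite strand, so the printed strand shows its reverse complement. Trim30a had a second window in the table, which also held a match. Ifih1 and Eif2ak2 had their matches downstream, 32 and 18 bases after the start site.
Oas1a: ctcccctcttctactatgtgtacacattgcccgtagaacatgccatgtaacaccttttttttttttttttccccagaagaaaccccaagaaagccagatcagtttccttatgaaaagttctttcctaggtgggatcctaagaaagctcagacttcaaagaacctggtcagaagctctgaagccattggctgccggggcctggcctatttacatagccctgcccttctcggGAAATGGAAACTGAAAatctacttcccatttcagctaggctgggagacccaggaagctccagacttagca
Trim30a: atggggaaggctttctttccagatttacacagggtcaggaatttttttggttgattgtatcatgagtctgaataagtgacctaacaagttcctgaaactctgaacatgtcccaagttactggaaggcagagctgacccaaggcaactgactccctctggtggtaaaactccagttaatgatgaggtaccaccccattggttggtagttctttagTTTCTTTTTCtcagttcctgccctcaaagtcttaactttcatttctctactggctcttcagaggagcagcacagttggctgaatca
Bst2: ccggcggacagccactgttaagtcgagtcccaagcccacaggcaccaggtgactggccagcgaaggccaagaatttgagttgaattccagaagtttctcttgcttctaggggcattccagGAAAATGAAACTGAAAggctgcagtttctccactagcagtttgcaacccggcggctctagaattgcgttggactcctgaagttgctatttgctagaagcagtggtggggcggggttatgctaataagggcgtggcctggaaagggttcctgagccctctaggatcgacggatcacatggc
Ifih1: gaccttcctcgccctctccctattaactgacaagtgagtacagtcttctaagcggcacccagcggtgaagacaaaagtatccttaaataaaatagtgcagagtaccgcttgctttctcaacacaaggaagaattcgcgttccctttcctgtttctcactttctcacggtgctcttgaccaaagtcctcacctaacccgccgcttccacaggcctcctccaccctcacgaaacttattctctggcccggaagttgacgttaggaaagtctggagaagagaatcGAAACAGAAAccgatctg
Eif2ak2: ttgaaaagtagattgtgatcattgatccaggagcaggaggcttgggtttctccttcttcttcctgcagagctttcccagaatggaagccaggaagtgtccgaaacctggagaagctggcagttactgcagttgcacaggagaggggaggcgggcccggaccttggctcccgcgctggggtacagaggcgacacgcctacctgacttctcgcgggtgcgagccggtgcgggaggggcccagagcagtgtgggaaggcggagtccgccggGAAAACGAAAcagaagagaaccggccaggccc
The Oas1a window is chr5:120907476-120907775, minus strand, that of Trim30a is chr7:104465144-104465443, minus strand, and that of Bst2 is chr8:71537423-71537722, minus strand. The Ifih1 window is chr2:62646206-62646505, minus strand, and that of Eif2ak2 is chr17:78882523-78882822, minus strand. Isg15, whose level was not analysed here, held 3 overlapping matches starting 78, 72 and 66 bases before its start site. Of the members with a difference between mice that passed the test described below, 7 were in the promoter table and 3 had a match. Of the tested members that did not pass, 9 were in the table and 5 had a match. Isg20, Samhd1, Trim25 and Lgals3bp passed without a match in this window.

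Levels are given throughout as the log2 values that the authors deposited, which ran from 3.602 to 15.24. The T cell identity was clear on every array: the 6 CD8 T cell markers, Cd3d, Cd3e, Cd3g, Cd247, Cd8a and Cd8b1, read 10.27 to 14.03. Arrays correlated with each other at 0.994 to 0.998. A gene was tested where its mean was at least 6.87, the 40th percentile of the probe set means. RNA of the targets was present and uneven. The mean of 17 ID8 marker genes was higher with PD-L1-overexpressing targets by 0.48 in mouse A, 0.41 in mouse C and 0.42 in mouse D, and lower by that measure in mouse B (-0.69). Of the 17, 8 were under the filter. Of the 9 tested, 9 were higher with PD-L1-overexpressing targets in A, 7 in C and 9 in D, against 1 in B. Single markers such as Epcam (-0.0198) and Krt8 (-0.0413) differed little between targets over the 4 mice. The arrays of mouse B thus ran against the other 3 animals in target-cell RNA. Whether the target labels of its 2 arrays were exchanged cannot be settled from the sources used here, so each value for mouse B is that of the array so labelled, and the called counts, named differences and bounds between targets are given again without mouse B.

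The members fall into groups by what they do. Of the genes that bind, edit or degrade RNA, those tested were Oas1a, Oas3, Oasl1, Eif2ak2, Adar and Isg20. Oas1a and Oas3 encode 2'-5'-oligoadenylate synthetases that activate RNase L; they ranged over 8.61 to 9.74 and 8.28 to 8.67. Oasl1, a related protein known in mice to hold back translation of Irf7, ranged over 7.07 to 7.42. Eif2ak2, the kinase PKR that stops translation on double-stranded RNA, ranged over 7.94 to 8.25. Adar, which edits adenosine in RNA, ranged over 8.49 to 8.80, and Isg20, an RNA exonuclease, over 10.16 to 11.16.

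Genes acting on nucleotides or membranes were Rsad2 (viperin, 7.40 to 7.98), Samhd1 (a dNTP hydrolase, 10.57 to 11.12), Mx2 (a dynamin-like GTPase, 7.28 to 7.58) and Bst2 (tetherin, 11.36 to 11.68). Usp18, which removes ISG15 from proteins and blocks the interferon receptor, ranged over 7.24 to 8.81. The sensors of foreign nucleic acid were Dhx58 (LGP2, 8.28 to 8.74), Ifih1 (MDA5, 8.18 to 8.65) and Zbp1, which binds Z-form nucleic acid (9.42 to 9.96). The ubiquitin ligase genes Trim25, which acts on RIG-I, and Trim21, an intracellular antibody receptor, ranged over 10.54 to 10.84 and 8.55 to 8.88. Trim30a, a further member of that family, ranged over 11.06 to 11.44. The ADP-ribosyltransferase family genes Parp14 and Parp9 ranged over 8.87 to 9.25 and 9.81 to 10.20. The remaining tested members were Ifi35 (10.37 to 10.64), Rtp4 (7.18 to 8.36), the secreted glycoprotein gene Lgals3bp (10.97 to 11.39) and the histone chaperone gene Daxx (9.44 to 9.51). All 23 tested members lay above 6.87 on all 8 arrays, so none passed the filter through 1 group alone.

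Another 9 members had a probe set but a mean under the filter. Ifit1, whose protein binds foreign RNA ends, was at 5.64, 5.52, 5.44 and 5.65 with PD-L1-overexpressing targets (mice A to D), against 5.52, 5.52, 5.38 and 5.56 with PD-L1-depleted targets. Its values overlap between the groups. Ifit2 and Ifit3, of the same family, ranged over 5.25 to 5.63 and 6.70 to 7.11. Oas2 and Oasl2 ranged over 6.51 to 6.85 and 5.06 to 5.51. The nucleotide kinase gene Cmpk2 ranged over 6.40 to 7.09, the GTPase gene Mx1 over 6.05 to 7.17, the DNA sensor gene Ifi204 over 4.20 to 4.81 and Tor3a over 6.44 to 6.70. Isg15 and Ifi203 had only probe sets annotated to several symbols, and Ddx58, Oas1g, Ly6e, Ifi44 and Xaf1 had none annotated to the symbol alone; these 7 were not analysed here. Several members are near-identical or adjacent copies, such as Oas1a and Oas1g, whose probes may take up RNA of both. Rsad2 and Cmpk2, Oas2 and Oas3, Oasl1 and Oasl2, and Ifit2 and Ifit3 are direct neighbours in the RefSeq gene order.

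**Figure D1:**
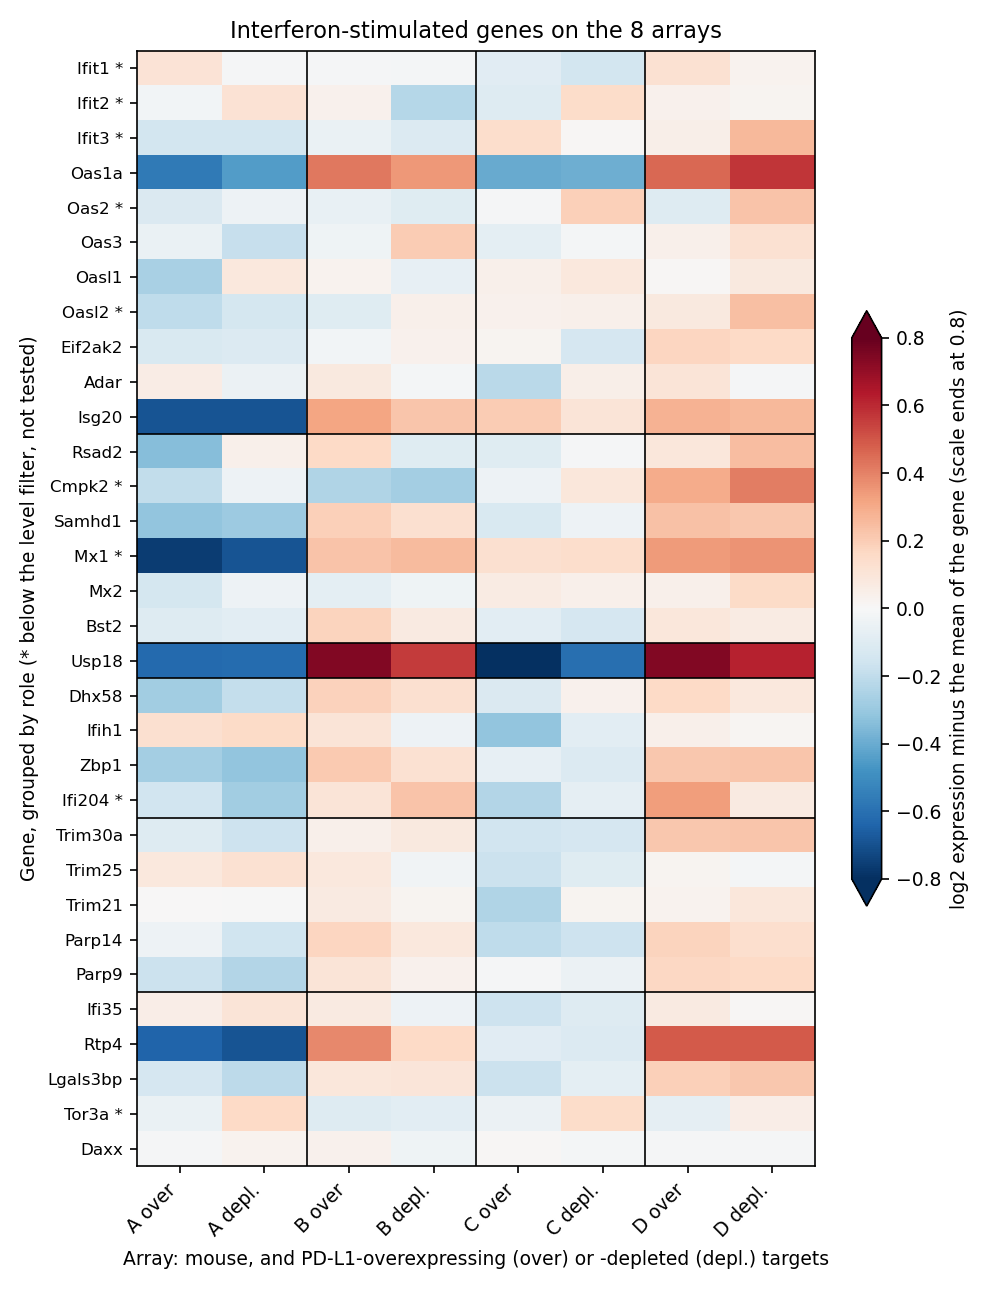
Each row is a member with a probe set of its own, grouped by role (starred where under the level filter), and each column is an array, with PD-L1-overexpressing left of PD-L1-depleted targets within a mouse. Colour is the log2 value minus the gene's mean over the 8 arrays; the colours change between mice, most for Usp18, Rtp4, Oas1a, Isg20 and Mx1, and little between the paired arrays of a mouse.

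The first comparison asked whether contact with targets rich or poor in PD-L1 changed these genes. None of the 23 tested members passed, higher or lower, in limma's moderated test with the mouse as a block (Benjamini-Hochberg adjusted p under 0.05). The background was the same: 0% of the 8003 genes passed as higher and 0% as lower. At an unadjusted p under 0.05, 0 members and 228 genes (2.85%) passed, and the smallest unadjusted p of a member was 0.13. The differences were small. Of the members, 12 of 23 (52.2%) had a positive difference, PD-L1-overexpressing minus PD-L1-depleted, against 53.4% of all genes, and the median difference was 0.0095 against 0.0033 over all genes.

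Isg20, the member with the smallest p, was at 10.16, 11.16, 11.05 and 11.12 with PD-L1-overexpressing targets (mice A to D), against 10.16, 11.07, 10.95 and 11.10 with PD-L1-depleted targets. It was higher in 4 of 4 mice, though by only 0.000313 in mouse A. The gap between targets was far smaller than that between mouse A and the others. Isg20 averaged 10.87 ± 0.479 with PD-L1-overexpressing targets, against 10.82 ± 0.447 with PD-L1-depleted targets (SD, n = 4 each), a difference of 0.0513 (SE 0.0308, 95% interval -0.0184 to 0.121). Bst2 was at 11.40, 11.68, 11.41 and 11.59 with PD-L1-overexpressing targets (mice A to D), against 11.41, 11.57, 11.36 and 11.56 with PD-L1-depleted targets, which differed by 0.0417 (SE 0.0289, 95% interval -0.0236 to 0.107). Parp14 was at 9.03, 9.25, 8.87 and 9.25 with PD-L1-overexpressing targets (mice A to D), against 8.91, 9.15, 8.90 and 9.21 with PD-L1-depleted targets, which differed by 0.0551 (SE 0.0418, 95% interval -0.0394 to 0.150). In both groups Bst2 was highest in mouse B, and Parp14 was highest in mouse D and lowest in mouse C. The groups overlapped for both genes. Limma's adjusted p was 0.9995 for each of these members and for the others of the 23.

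In the other direction, Oasl1 was at 7.07, 7.36, 7.38 and 7.34 with PD-L1-overexpressing targets (mice A to D), against 7.42, 7.27, 7.42 and 7.41 with PD-L1-depleted targets. Its low array was that of mouse A with PD-L1-overexpressing targets, and the difference was -0.0913 (SE 0.0760, 95% interval -0.263 to 0.0804). Trim21 was at 8.79, 8.86, 8.55 and 8.81 with PD-L1-overexpressing targets (mice A to D), against 8.79, 8.81, 8.81 and 8.88 with PD-L1-depleted targets, which differed by -0.0663 (SE 0.0557, 95% interval -0.192 to 0.0595). It was lower in 2 of 4 mice and higher in the other 2. Oas3 was at 8.41, 8.43, 8.39 and 8.50 with PD-L1-overexpressing targets (mice A to D), against 8.28, 8.67, 8.45 and 8.59 with PD-L1-depleted targets, which differed by -0.0635 (SE 0.0601, 95% interval -0.199 to 0.0723), and the groups overlapped for all 3 genes. The feedback gene Usp18 averaged 8.07 ± 0.848 with PD-L1-overexpressing targets, against 8.05 ± 0.691 with PD-L1-depleted targets (SD, n = 4 each). Its difference was 0.0206 (SE 0.0686, 95% interval -0.134 to 0.176), with 2 mice higher and 2 lower.

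The intervals bound what could have been missed. All 23 members had a 95% interval inside 1.5-fold either way (99.4% of all genes did), and 21 of 23 inside 1.2-fold (94.1% of all genes). The lowest bound of any member was -0.299, for Rsad2, and the highest was 0.201, for Rtp4. The 3 probe sets of Rsad2 did not give the same sign, with differences of 0.13, -0.12 and -0.09. Only Isg20, Parp9 and Rtp4 had the same sign in 4 of 4 mice, all higher with PD-L1-overexpressing targets. This was 13% of the members, against 10.5% of all genes. Their smallest differences were barely above 0, at 0.000313 for Isg20 in mouse A, 0.0010 for Parp9 in mouse D and 0.000843 for Rtp4 in mouse D. Within single mice, the median difference of the members was -0.01 for mouse A, 0.09 for mouse B, -0.04 for mouse C and 0.0035 for mouse D, against 0.0012, 0.03, -0.02 and 0.0049 over all genes. With PD-L1-overexpressing targets, 18 of the 23 members were higher in mouse B (78.3%, against 61.3% of all genes), 10 in A (43.5%, against 50.5%), 8 in C (34.8%, against 39.8%) and 14 in D (60.9%, against 53.1%).

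Without mouse B, 176 genes (2.2%) passed, but 0 of the 23 members did. At an unadjusted p under 0.05, 1 member (4.35%) passed, against 12.4% of all genes: Rsad2, which differed by -0.21 (95% interval -0.35 to -0.0694), with a limma adjusted p of 0.147. That is over 1.5 times its difference of -0.0934 in all 4 mice. Now 8 of 23 members (34.8%) had a positive difference, against 45.5% of all genes, and the median was -0.0144, against -0.0057 over all genes. Isg20 then differed by 0.0388 (95% interval -0.0343 to 0.11), Bst2 by 0.0199 (95% interval -0.0443 to 0.084) and Parp14 by 0.0428 (95% interval -0.0558 to 0.14). Oasl1 differed by -0.15 (95% interval -0.31 to 0.0034), Trim21 by -0.11 (95% interval -0.22 to 0.007) and Oas3 by -0.0052 (95% interval -0.12 to 0.11). Of these, Bst2 and Oas3 lay nearer to 0 than with all 4 mice, and Oasl1 and Trim21 farther from it, each by more than 1.5 times. Rtp4 differed by 0.0227 (95% interval -0.10 to 0.15), also nearer to 0, and Usp18 had the other sign, at -0.0334 (95% interval -0.17 to 0.11). Apart from that of Rsad2, these intervals all held 0. All 23 intervals again lay inside 1.5-fold (99.3% of all genes) and 21 inside 1.2-fold (91.1%), with the lowest bound at -0.350, for Rsad2, and the highest at 0.174, for Eif2ak2.

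**Figure D2:**
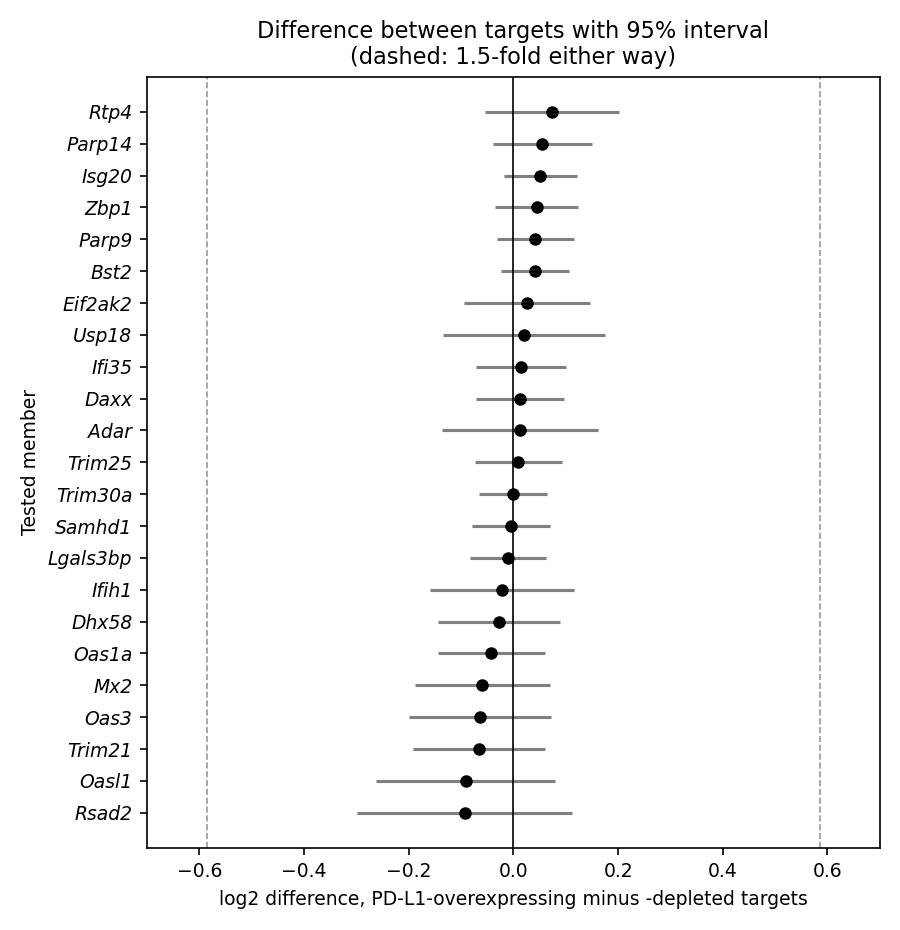
Each point is the log2 difference of a tested member, PD-L1-overexpressing minus PD-L1-depleted targets, with its 95% interval from the paired limma fit (n = 4 mice). All 23 intervals cross 0 and lie within the dashed lines at 1.5-fold, with the points between -0.0934 and 0.0735.

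The second comparison asked how far the genes differed between the 4 animals. Of the members, 13 of 23 (56.5%) passed limma's moderated F test between mice, against 29.3% of all genes. Their median range between the highest and lowest mouse was 0.34, against 0.19 over all genes. Differences of more than 2-fold were found for Usp18, Rtp4 and Oas1a, which is 13% of the members against 0.962% of all genes. The share of a gene's variance that lay between mice had a median of 90.6% in the members and 73.8% in all genes, and the share between targets 0.733% and 2.83%. Mouse D was the highest for 14 of the 23 members (60.9%, against 21.7% of all genes), and mouse A the lowest for 13 (56.5%, against 27%). Mouse A was the highest for 4 (17.4%, against 38.5%), B for 4 (17.4%, against 21.3%) and C for 1 (4.35%, against 18.6%). Mouse C was the lowest for 9 (39.1%, against 27%), D for 1 (4.35%, against 19.8%) and B for 0 (against 26.3%). No label sets these animals apart, and with 4 of them no group of animals is compared. Both arrays of a mouse came from the T cells of that mouse. The animal and the activation or handling of its cells therefore cannot be told apart.

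**Figure D3:**
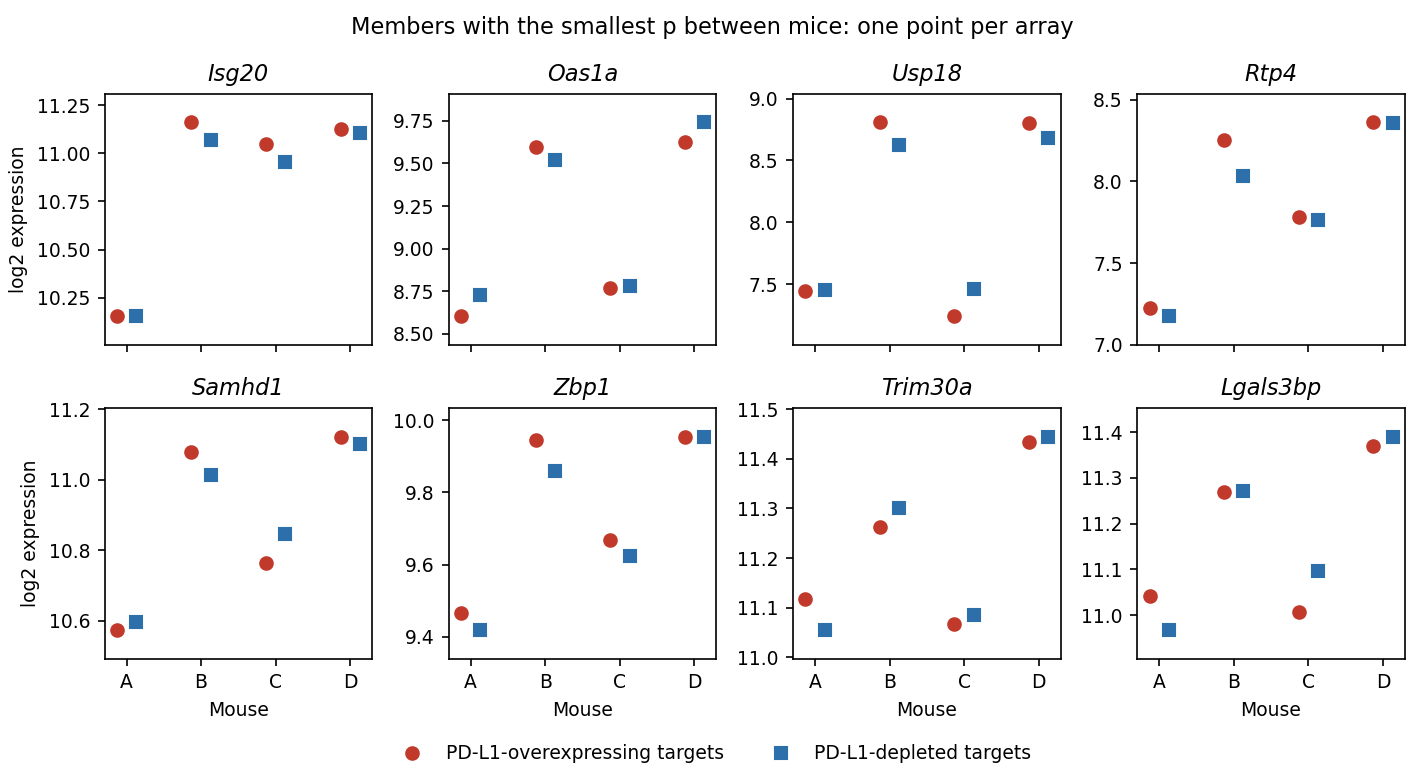
Log2 expression of the 8 members with the smallest p between mice, 1 point per array, with PD-L1-overexpressing targets left of PD-L1-depleted targets in each mouse; the vertical axes differ and do not start at 0. The paired points of a mouse lie close together, and the 8 panels do not share an order: mouse C sits with mouse A for Usp18 and Oas1a, but with B and D for Isg20.

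Usp18 changed most. With PD-L1-overexpressing and then PD-L1-depleted targets, it was at 8.80 and 8.68 in mouse D and 8.81 and 8.62 in mouse B, against 7.24 and 7.46 in mouse C and 7.45 and 7.45 in mouse A. The arrays of mice D and B did not overlap with those of C and A. The difference was 1.39 (SE 0.0970, adjusted p = 3.11e-05) for D minus C, or 2.62-fold, and 1.27 (SE 0.0970, adjusted p = 5.43e-05) for B minus A, or 2.41-fold, by limma's moderated contrasts. Usp18 did not pass between C and A (adjusted p = 0.560) or between D and B (adjusted p = 0.889).

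Oas1a also had its higher arrays in mice D and B. It was at 9.63 and 9.74 in mouse D and 9.59 and 9.52 in mouse B, against 8.77 and 8.78 in mouse C and 8.61 and 8.72 in mouse A, again without overlap. It was 2.03-fold higher in D than in A, by 1.02 (SE 0.0642, adjusted p = 1.66e-05), and 1.72-fold higher in B than in C, by 0.78 (SE 0.0642, adjusted p = 8.31e-05). Between C and A limma's adjusted p was 0.305.

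Isg20 had another pattern, with mouse A alone at the low end. It was at 11.16 and 11.07 in mouse B, 11.12 and 11.10 in mouse D and 11.05 and 10.95 in mouse C, against 10.16 and 10.16 in mouse A. B exceeded A by 0.96 (SE 0.0436, adjusted p = 2.1e-06), or 1.94-fold, and C exceeded A by 0.84 (SE 0.0436, adjusted p = 4.72e-06), or 1.79-fold. B and C did not pass (adjusted p = 0.117). The result therefore rests on mouse A: without it, the F test of Isg20 gave an adjusted p of 0.19.

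Rtp4, a chaperone of receptors on their way to the cell surface, was graded. It was at 8.36 and 8.36 in mouse D, 8.26 and 8.03 in mouse B and 7.78 and 7.76 in mouse C, against 7.23 and 7.18 in mouse A. D exceeded A by 1.16 (SE 0.0800, adjusted p = 2.97e-05), or 2.23-fold, D exceeded C by 0.59 (SE 0.0800, adjusted p = 0.0016), and C exceeded A by 0.57 (SE 0.0800, adjusted p = 0.0019). A dimmer probe set of Rtp4, with a mean of 4.55, showed no such order, with mouse means of 4.51 to 4.62.

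Samhd1 and Zbp1 were also lowest in mouse A. Samhd1 was at 11.12 and 11.10 in mouse D, 11.08 and 11.01 in mouse B and 10.76 and 10.85 in mouse C, against 10.57 and 10.60 in mouse A, with D above A by 0.53 (SE 0.0465, adjusted p = 0.000128) and C above A by 0.22 (SE 0.0465, adjusted p = 0.0143). Its 4 probe sets each had D highest and A lowest. Zbp1 was at 9.95 and 9.96 in mouse D, 9.95 and 9.86 in mouse B and 9.67 and 9.62 in mouse C, against 9.47 and 9.42 in mouse A, with D above A by 0.51 (SE 0.0493, adjusted p = 0.000213), or 1.43-fold.

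Trim30a and Lgals3bp changed by less, and D was highest in both. Trim30a was at 11.43 and 11.44 in mouse D and 11.26 and 11.30 in mouse B, against 11.12 and 11.06 in mouse A and 11.07 and 11.09 in mouse C. D exceeded C by 0.36 (SE 0.0406, adjusted p = 0.000543). Trim30a was the only member to pass between D and B, by 0.16 (SE 0.0406, adjusted p = 0.0329). With median centring, the mean of probe sets or eBayes without a trend, 0 members passed there. The share of all genes in those fits is not given here. Lgals3bp was at 11.37 and 11.39 in mouse D and 11.27 and 11.27 in mouse B, against 11.01 and 11.10 in mouse C and 11.04 and 10.97 in mouse A, with D above A by 0.38 (SE 0.0459, adjusted p = 0.000875). For both genes the arrays of A and C overlapped.

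The other 5 members that passed the F test changed by at most 1.31-fold between any 2 mice. Parp9 was 1.29-fold higher in D than in A. Parp14 was lowest in C, and D exceeded C by 1.27-fold and A by 1.19-fold. Bst2 was 1.18-fold higher in B than in C, and Dhx58 1.31-fold higher in B than in A. Trim25 had its largest difference between C and A, at -0.24 (SE 0.0522, adjusted p = 0.0163). Limma's adjusted p of the F test was 0.0023 for Parp9, 0.0046 for Bst2, 0.0053 for Parp14, 0.0121 for Dhx58 and 0.0351 for Trim25.

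The 10 tested members that did not pass the F test were Ifi35 (adjusted p = 0.0550), Ifih1, Eif2ak2, Oas3, Mx2, Rsad2, Trim21, Adar, Oasl1 and Daxx (adjusted p = 0.990). Daxx had the smallest range of mouse means, 0.0181. Family members thus differed among themselves: Oas1a passed, with a range of mouse means of 1.02, while Oas3 had a range of 0.20 and Oasl1 of 0.15 and neither passed. The difference between these genes was not tested. The sensor gene Ifih1 was lowest in mouse C: it was at 8.18 and 8.41 in mouse C, against 8.62 and 8.65 in mouse A, a difference of -0.34 (SE 0.0860, adjusted p = 0.0297).

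The 6 pairs of mice were then set against each other. Between B and A, 12 members were higher (52.2%, against 9.67% of all genes) and 0 lower (against 9.28%). Between D and A, 13 were higher (56.5%, against 9.83%) and 0 lower (against 11.9%). Those 13 were the 12 of B minus A and Eif2ak2, which exceeded A by 0.28 (SE 0.0750, adjusted p = 0.0371). Between B and C, 9 were higher (39.1%, against 6.95%) and 0 lower (against 3.64%). Between D and C, 10 were higher (43.5%, against 3.97%) and 0 lower (against 1.97%). Adjustment was over all genes and all 6 contrasts together.

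Mice C and A, which were both low for Usp18 and Oas1a, differed in both directions. Isg20, Samhd1, Zbp1, Parp9 and Rtp4 were higher in C (21.7% of the members, against 7.87% of all genes). Ifih1, Trim25 and Ifi35 were lower in C (13%, against 13.1%), which is near the background. With eBayes without a trend, 0 members were lower, and the share of all genes in that fit is not given here. Between D and B, 1 member was higher (4.35%, against 2.94%) and 0 lower (against 4.66%). The contrasts share arrays and are not independent of each other. Without mouse A, 9 of 23 members still passed the F test, namely Bst2, Lgals3bp, Oas1a, Parp14, Rtp4, Samhd1, Trim30a, Usp18 and Zbp1, against 7.2% of all genes (576). Without mouse B, 17 passed, against 44.4% of all genes (3555).

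**Figure D4:**
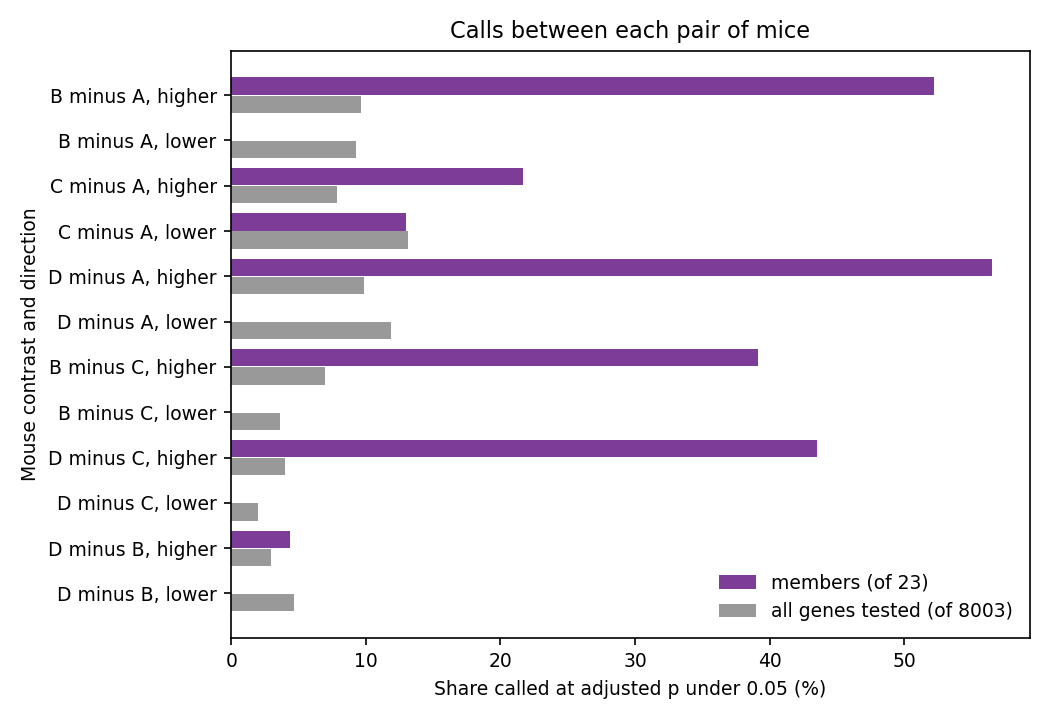
Bars give the percentage of the 23 tested members (upper bar) and of all 8003 genes tested (lower bar) that passed limma's moderated contrast between 2 mice at an adjusted p under 0.05, by contrast and direction. The members exceed the background as higher in B minus A (52.2% against 9.67%), D minus A, B minus C and D minus C, and lie near it as lower in C minus A (13% against 13.1%).

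Among the 9 members under the filter, Mx1 was at 7.15 and 7.17 in mouse D, 7.03 and 7.06 in mouse B and 6.93 and 6.95 in mouse C, against 6.05 and 6.12 in mouse A. In a fit without the filter, where 17.4% of 12393 genes passed the F test, Mx1 passed with an adjusted p of 6.43e-05, and D exceeded A by 1.07 (SE 0.0868, adjusted p = 4.88e-05). Cmpk2 (adjusted p = 0.0056) and Ifi204 (adjusted p = 0.0412) also passed there. For Cmpk2, D exceeded B by 0.61 (SE 0.0930, adjusted p = 0.0028). Ifit1, Ifit2, Ifit3, Oas2, Oasl2 and Tor3a did not pass in that fit.

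The pathway upstream was read from lists of ligands, signalling genes and regulators, and 0 of their tested genes passed between targets. The type I interferon genes themselves were low. Of 8 with a probe set, 0 reached the filter, and all their arrays lay between 4.18 and 6.75. Ifnb1, the gene of interferon-beta, was at 6.17, 6.003, 5.98 and 6.09 with PD-L1-overexpressing targets (mice A to D), against 6.36, 5.86, 5.81 and 6.06 with PD-L1-depleted targets. Its groups overlapped. The receptor genes showed no difference between mice that passed: Ifnar1 ranged over 9.35 to 9.60 (limma's adjusted p of the F test 0.666) and Ifnar2 over 9.82 to 9.92 (adjusted p 0.863).

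Of the 6 receptor and ISGF3 genes tested, 3 passed the F test between mice (29.3% of all genes did): Stat2, Irf9 and Tyk2. Stat2 was at 8.04 and 7.99 in mouse D and 7.88 and 7.79 in mouse B, against 7.48 and 7.47 in mouse C and 7.57 and 7.36 in mouse A. All arrays of D and B were above those of C and A, and D exceeded A by 0.55 (SE 0.0794, adjusted p = 0.0022). Irf9 was higher in B than in A by 0.33 (SE 0.0574, adjusted p = 0.0058) and in D than in A by 0.29 (SE 0.0574, adjusted p = 0.0105), while C and A did not pass (adjusted p = 0.936). Of 6 interferon regulatory factor genes, 3 passed (50%, against 29.3% of all genes), Irf1, Irf7 and Irf8. Irf7, an amplifier of type I interferon production, had A lowest, with B above A by 0.56 (SE 0.0832, adjusted p = 0.0026) and C above A by 0.45 (SE 0.0832, adjusted p = 0.0078). Of 6 negative regulators, 2 passed (33.3%, against 29.3% of all genes), which is near the background. Socs3, an inhibitor of cytokine receptor signalling, had an adjusted p of 0.0021, and Socs1, which acts on interferon receptors, of 0.0191. Among 5 adaptors and other sensors, 1 passed (20%, below the 29.3% of all genes), the kinase gene Ikbke (adjusted p = 0.0081).

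Interferon-gamma, which the T cells make themselves, induces some of the same genes, and a list of its response genes was read beside the members. Of 17 such genes tested, 15 passed the F test between mice (88.2%, against 29.3% of all genes). Between B and A, 13 were higher (76.5%, against 9.67%) and 1 lower (5.88%, against 9.28%), and between D and A, 12 were higher (70.6%, against 9.83%) and 1 lower (5.88%, against 11.9%). Between B and C 15 were higher (88.2%, against 6.95%) and 0 lower (against 3.64%), and between D and C 13 were higher (76.5%, against 3.97%) and 0 lower (against 1.97%). Gbp2, a GTPase of defence against intracellular pathogens and the gene of the list with the smallest p, had mouse means of 11.61 in D and 11.74 in B, against 10.92 in C and 10.41 in A. Ifng itself did not take that order. Its mouse means were 12.88 in D and 13.13 in B, against 13.28 in C and 13.10 in A, and D minus C was -0.40 (SE 0.0433, adjusted p = 0.000414). All 4 genes of the interferon-gamma ligand and receptor list passed the F test (against 29.3% of all genes), with the smallest p for Ifngr1 (adjusted p = 5.16e-05). Ifngr1 did have D and B above C and A, with mouse means of 10.80 and 10.97, against 10.62 and 10.23. Ifngr2 ran the other way, at 7.18 in D and 7.24 in B, against 7.44 in C and 7.48 in A. Jak2 took neither order, at 9.54 in D and 9.77 in B, against 9.38 in C and 9.74 in A. The members were not compared with this list by a test.

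**Figure D5:**
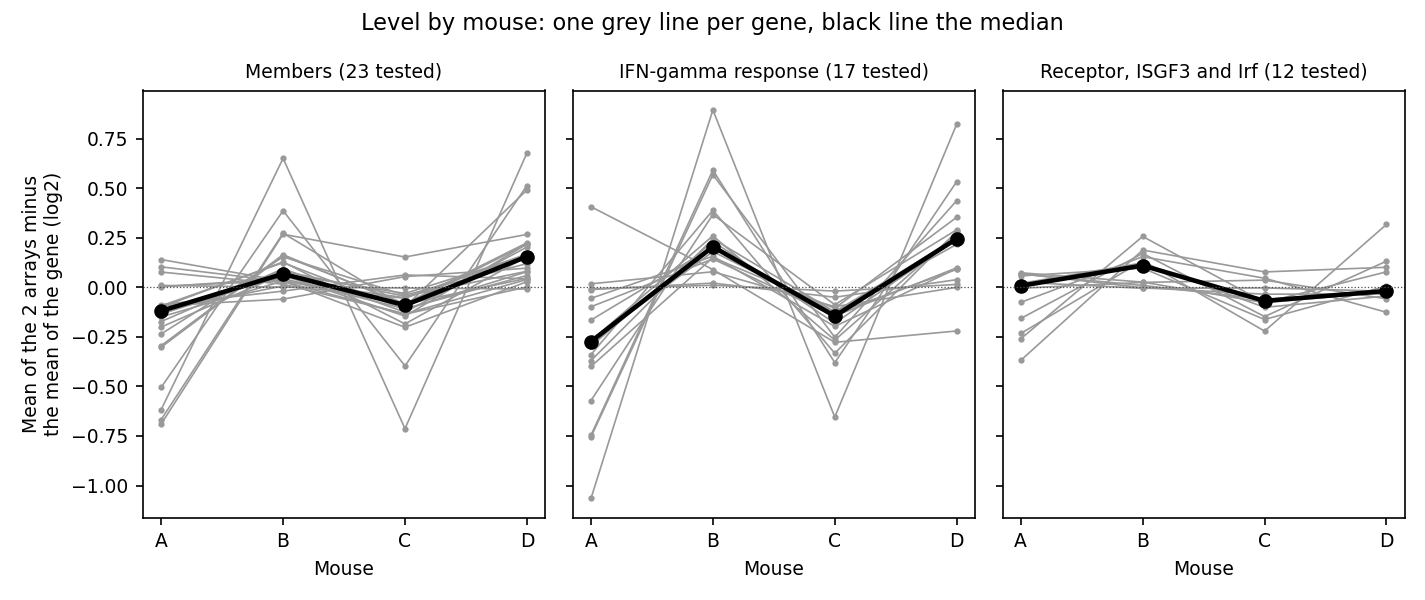
Each grey line is a gene, drawn as the mean of the 2 arrays of a mouse minus the gene's mean over all arrays (log2), and the black line is the median of the panel. The medians of the members (23 genes) and of the interferon-gamma response genes (17 genes) are both higher in B and D and lower in A and C, with single genes that run otherwise; the receptor, ISGF3 and Irf genes (12 genes) are flatter.

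Markers of other cells also differed between mice. The mean of 10 genes listed as B cell markers was 8.04 and 8.15 in mouse D and 8.23 and 8.17 in mouse B, against 7.75 and 7.83 in mouse C and 7.61 and 7.69 in mouse A, each with PD-L1-overexpressing and then PD-L1-depleted targets. Of that list, 4 genes were tested, Ighm, Cd74, H2-Ab1 and H2-Aa, and all 4 had D and B above C and A. Cd74, H2-Ab1 and H2-Aa are not particular to B cells. H2-Aa had mouse means of 9.07 in D and 10.16 in B, against 7.14 in C and 6.77 in A. The defining genes Cd79a, Cd79b, Ms4a1, Cd22, Blk and Pax5 were under the filter, at 5.47 to 6.82. They did not share an order of mice. Cd79b and Blk had both D and B above C and A, with Blk at 5.92 in D and 5.97 in B, against 5.71 and 5.59. Cd79a, Ms4a1, Cd22 and Pax5 did not: Cd79a was 6.70 in D and 6.43 in B, against 6.75 in C and 6.61 in A. The mean of 11 macrophage and dendritic cell genes was 6.49 and 6.66 in mouse D and 6.54 and 6.48 in mouse B, against 6.54 and 6.62 in mouse C and 6.28 and 6.45 in mouse A. Of the 3 of these genes that were tested, 2 passed the F test (66.7%, against 29.3% of all genes). Fcer1g, a signalling chain of Fc receptors, had mouse means of 9.11 in D, 9.30 in B and 8.53 in C, against 7.33 in A, 3.91-fold higher in B than in A (adjusted p of the F test 9.75e-07). Cd68 was highest in C, at 8.11 (adjusted p of the F test 0.0020). The defining genes Lyz2, Adgre1, Itgax, Itgam, Cd14, Fcgr3, C1qa and C1qb were under the filter, at 4.53 to 6.90. The mean of 5 plasmacytoid dendritic cell genes, 2 of them tested, was 6.86 to 6.97 with PD-L1-overexpressing targets, against 6.90 to 6.97 with PD-L1-depleted targets. The CD8 T cell marker mean was 12.33 to 12.47 with PD-L1-overexpressing targets, against 12.29 to 12.47 with PD-L1-depleted targets, lowest in mouse A in both. Of these 6 markers, 4 passed the F test between mice (66.7%, against 29.3% of all genes). Mouse A was the lowest for 5 of them (83.3%, against 27%), and 4 were higher in D than in A (66.7%, against 9.83%). Of the 9 tested ID8 markers, 2 passed the F test (22.2%, against 29.3% of all genes). Mouse C was the highest for 8 of the 9 (88.9%, against 18.6%) and mouse A the lowest for 6 (66.7%, against 27%). The part of other cells and of target RNA in the differences between mice was not tested.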

How the data were processed

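Total RNA of 8 samples was hybridised, biotin-labelled, to a 3' expression array, per the labels' protocols. The authors deposited 1 log2 value per probe set and array; that scale was inferred from their range, and the summarisation, normalisation and genome build are not given in the sources used here. Ranked values differed between arrays by at most 0.167. Sample titles give the mouse and the target.

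Of 22690 probe sets, 64 were controls. Of the other 22626, the platform annotation gave 1 symbol for 20380, several for 691 and none for 1555. The probe set with the highest mean stood for each of 12393 genes, and genes under 6.87 (the 40th percentile) were not tested, leaving 8003. Limma 3.58.1 in R 4.3.3 (lmFit, eBayes with a trend) tested targets with the mouse as a fixed block, and mice by the moderated F test and 6 contrasts with the target as covariate, two-sided; Benjamini-Hochberg adjusted p-values under 0.05 passed. The series design states that the cells of each mouse were divided between targets; deviations of paired arrays correlated at 0.82 (A), 0.16 (B), 0.61 (C) and 0.64 (D), and the best correlation with an array of another mouse was -0.17, 0.31, 0.13 and 0.31 for A to D, so that in mouse B it exceeded the animal's own. The steps were tested on simulated data. Array number limits the precision.

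The members and lists were chosen with earlier results of these data known. Values on every array were given for Usp18, Ifit1, the 8 members with the smallest p between mice and the 3 with the smallest p between targets in each direction; Isg15 was planned but not analysed here. Mx1, Ifih1 and genes outside these rules were described after their values were seen. Lists covered ligands, receptor and ISGF3 signalling, regulatory factors, negative regulators, adaptors, interferon-gamma genes and markers of other cells; those of NK cells, neutrophils, erythroid cells and CD4 T cells had 0, 1, 1 and 1 tested genes. Alternatives were no block, a random block, quantile normalisation, median centring, no filter, the 60th percentile as filter, the mean of probe sets, eBayes without a trend or robust, and leaving out each mouse. The table held 0 columns of other samples.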

Additional observations from a re-analysis of the deposited data

Results flagged for a closer look

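Of 64 groups of 4 arrays (a member with a probe set, in 1 target group), 6 had an array set apart from the other 3 by Dixon's ratio, the gap to the nearest array over the group's range, above the 95% critical value for 4 arrays. Chance flags about 1 in 20 groups, here about 3.2. The share of all genes flagged by this rule was not counted, and the groups share the same arrays. The count of 6 is therefore not read as a trait of the members. Isg20 was lowest in mouse A in both groups, with ratios of 0.888 with PD-L1-overexpressing targets, against 0.841 with PD-L1-depleted targets. Oasl1 was lowest in mouse A with PD-L1-overexpressing targets (0.881) and in mouse B with PD-L1-depleted targets (0.972). With PD-L1-overexpressing targets, mouse C was lowest for Adar (0.867) and Ifi35 (0.904).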

How the results depend on the processing

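With no replicate block, and so without pairing the arrays of a mouse, 0 genes and 0 members passed between targets, as in the paired fit, and 0 members passed under any of the 13 alternatives for that comparison. The count of genes called between targets ran from 0 to 176 as each mouse was left out, with 176 without mouse B. The difference of Usp18 between targets ran from -0.0334 (without mouse B) to 0.1, and was -0.0137 without mouse D; it passed in none of these fits. Between mice, 9 to 17 members passed under the 11 alternatives, against 13, while all genes ran from 576 (without mouse A) to 3555 (without mouse B), against 2347. Members higher in C than in A numbered 3 without mouse D and 6 without mouse B, against 5, and members lower numbered 0 with eBayes without a trend, against 3. For D minus B, where 1 member was higher, the count was 0 with median centring, the mean of probe sets or no trend, 2 with no filter, and 0 to 1 as mice were left out. The shares of all genes for these contrasts under each setting are not given here. A change in these member counts therefore cannot be told from a change in all genes. The adjusted p of Isg20 between mice was 0.19 without mouse A. Of 490 values under alternatives, 455 were counted as keeping their direction and side of the threshold or as moving little. The limits for moving little are not given here, so this count is no measure of stability. Quantile normalisation and median centring moved array medians by at most 0.0289. Where a setting changed a result, the cause was not tested. With 4 animals and 2 arrays each, small differences and those of dim probe sets could be missed.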
